A study of Mus musculus with 12 samples.

Results

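Of 5814 BRWD1 peaks of replicate 1 on chromosomes 1 to 19, X and Y, 685 overlapped a BRWD1 peak of replicate 2, and 246 of these 685 also overlapped an H3K9Ac peak of either replicate and no H3S10pK14Ac peak of either replicate. These 246 regions, called H3K9Ac-only BRWD1 peaks here, were 35.9% of the BRWD1 peaks found in both replicates (95% Wilson interval 32.4 to 39.6%). A single shared base sufficed for an overlap. The regions were chosen by the presence of BRWD1 and H3K9Ac peaks and the absence of H3S10pK14Ac peaks, so these counts are a description. The choice did not use where the BRWD1 peak lay within the H3K9Ac peak, how wide and how strong that H3K9Ac peak was, how far the region was from other peaks, and how the regions were spread over the genome.

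Peaks came from ChIP-seq, in which DNA bound by a protein or a histone mark is pulled down with an antibody and sequenced, of small pre-B cells. These were flow-sorted from the bone marrow of C57BL/6 mice as lineage-negative, B220-positive, CD43-negative, IgM-negative cells of low forward scatter. Antibodies against BRWD1, H3K9Ac and H3S10pK14Ac were each used on 2 biological replicates, per the labels, and each of the 6 libraries has its own list. No mutant or treated cells enter these lists, the input DNA and ATAC-seq samples are not analysed here, and the peak lists hold no expression values with which the cell type could be checked.

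BRWD1 is a nuclear protein with WD repeats and bromodomains, the modules by which many chromatin proteins bind acetylated lysines. H3K9Ac, histone H3 acetylated at lysine 9, marks active promoters and enhancers. H3S10pK14Ac is histone H3 that carries a phosphate at serine 10 and an acetyl group at lysine 14, and the series title places BRWD1 at the Igk locus, which small pre-B cells rearrange to make the kappa light chain.

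The lists differed in size and in the shape of their peaks. Replicates 1 and 2 gave 5814 and 9966 BRWD1 peaks, 10118 and 16453 H3K9Ac peaks, and 103 and 10638 H3S10pK14Ac peaks. Each list had its own smallest peak width: BRWD1 59 and 148 bp, H3K9Ac 209 and 146 bp, H3S10pK14Ac 53 and 142 bp. Each peak has the authors' score, a −log10 of its significance, and no score was below 5. The lists give no read counts, so the depth behind a peak is unknown, and scores and percentiles are compared within a list only.

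The number of H3K9Ac-only BRWD1 peaks depended on single libraries. Of the 481 reproducible BRWD1 peaks with H3K9Ac, 235 were set aside because they touched H3S10pK14Ac, 233 of them through replicate 2 of that mark and 2 through its 103-peak replicate 1 alone. Without H3S10pK14Ac replicate 2 the count was 448, and without H3K9Ac replicate 1 it was 86. Without BRWD1 replicate 2 it was 521, and without BRWD1 replicate 1, counting replicate 2 peaks, it was 918.

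BRWD1 peaks under H3K9Ac alone were found again in the second BRWD1 library at an intermediate rate. Among the 521 replicate 1 peaks with H3K9Ac and no H3S10pK14Ac, 246 recurred in replicate 2 (47.2%, 95% Wilson interval 43.0 to 51.5%). Of those with both marks 235 of 245 recurred (95.9%), and of those with neither mark 168 of 4988 (3.37%). The background over all replicate 1 peaks was 11.8%. The classes also differ in BRWD1 score, whose part in the recurrence was not tested.

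BRWD1 scores at the 246 regions ranked high in the lists but did not reach the top, with medians below those of the regions that carried both marks. At the 246 regions the replicate 1 score ran from 5.03 to 72.5, rank 8 of 5814. Its median was 11.6, and the median percentile in the list was 93.4. Their replicate 2 score had a median of 8.36, a median percentile of 93.2 and a maximum of 31.7. The highest scores of the lists were 214.64 in replicate 1 and 150.45 in replicate 2, both at regions with both marks. A score of 10 or more was reached by 141 of 246 in replicate 1 (57.3%, against 7.72% of the whole list), close to the share of all reproducible peaks, 356 of 685. In replicate 2 it was reached by 70 (28.5%, against 3.96% of that list). The 235 regions with both marks had medians of 18.5 and 18.7, and the 204 reproducible regions without H3K9Ac had a replicate 1 median of 6.91. At a replicate 1 score of 30 or more, only 9 of 75 reproducible peaks were H3K9Ac-only (12.0%), and the other 66 carried both marks; between 10 and 15 the H3K9Ac-only regions were 70 of 139 (50.4%). Reproducibility was part of the choice of regions and goes with score, so these scores are a description.

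The scores of a region in the BRWD1 libraries went together weakly. Across the 246 regions Pearson's r of the log2 scores was 0.31 and Spearman's rho 0.28. BRWD1 and H3K9Ac scores, both of replicate 1, had r = 0.21 and rho = 0.34 over 220 regions. BRWD1 replicate 1 and H3K9Ac replicate 2 had r = −0.26 and rho = −0.11 over 86 regions. These correlations are across regions that share the same libraries, and are descriptions.

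H3K9Ac at these regions was mostly seen in 1 library. A peak of H3K9Ac replicate 1 lay at 220 of the 246 regions (89.4%, near the 87.1% of all 766 BRWD1 replicate 1 peaks with H3K9Ac) and one of replicate 2 at 86 (35.0%, against 49.1%), although the replicate 2 list is the longer. Both H3K9Ac libraries had a peak at 60 regions (24.4%, 95% Wilson interval 19.4 to 30.1%), against 36.2% of the 766. Among regions with both marks the count was 154 of 235 (65.5%, 59.2 to 71.3%). The 275 H3K9Ac-only BRWD1 peaks of replicate 1 alone had values close to those of the reproducible ones, with 90.5% in H3K9Ac replicate 1, 30.9% in replicate 2 and 21.5% in both. The remaining reproducible regions had H3K9Ac in replicate 1 alone (160) or replicate 2 alone (26). Where only H3K9Ac replicate 1 had a peak, the nearest H3K9Ac replicate 2 peak was a median of 82963 bp away and lay within 1 kb at 6 of the 160. Without H3S10pK14Ac replicate 2 the share with both H3K9Ac libraries was 40.8%, and without BRWD1 replicate 1 it was 40.6%. These are shares of the larger sets of 448 and 918 regions that the choice then gave.

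The BRWD1 replicate 1 score differed among these 3 groups of regions, in an order that BRWD1 replicate 2 did not repeat. The median replicate 1 score was 14.6 where both H3K9Ac libraries had a peak, 11.6 where only H3K9Ac replicate 1 had one and 7.58 where only replicate 2 had one. The highest replicate 1 score of the last group was 13.3, whereas single regions of the other groups reached 38.8 and 72.5. In BRWD1 replicate 2 the medians of the groups, in the same order, were 9.76, 8.105 and 8.395. The highest scores there were 28.9, 30.1 and 31.7, the last in the group with H3K9Ac replicate 2 alone.

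Seen from the H3K9Ac lists, 216 peaks of replicate 1 and 84 of replicate 2 held an H3K9Ac-only BRWD1 peak. Of the 216, 60 were found in the other H3K9Ac list (27.8%, background 43.2%), and of the 84, 58 were (69.0%, background 29.2%). The share was thus below that of the whole list in replicate 1 and above it in replicate 2. For regions with both marks the shares were 80.7% and 79.1%.

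The 10 regions with the best mean score rank over the BRWD1 libraries show the arrangements that recur below. The highest replicate 1 score was at chr6:3151445-3151547 (mm9, as are all coordinates), with 72.5 in replicate 1 and 30.1 in replicate 2. It lay 1.5 bp from the centre of a 396 bp H3K9Ac replicate 1 peak of score 20.4, and no H3K9Ac replicate 2 peak was there. At chr11:110867695-110867781 the BRWD1 scores were 38.8 and 15.7, and the H3K9Ac peaks were 382 bp wide with its centre 1.5 bp away in replicate 1 and 162 bp wide with its centre 48.5 bp away in replicate 2. Both are narrow BRWD1 peaks at the middle of a replicate 1 H3K9Ac peak of under 500 bp, and the second was off centre in replicate 2. The region chr11:89591437-89591516 (BRWD1 scores 24.0 and 20.7) was centred in both H3K9Ac libraries, 1.0 bp from the centre of a 370 bp peak and 2.5 bp from that of a 233 bp peak. On the X chromosome, X:155643979-155644125 (31.7 and 15.8) lay 2.5 bp from the centre of a 438 bp H3K9Ac replicate 1 peak with a score of 34.1, and had none in replicate 2. A further 4 regions were placed alike in H3K9Ac replicate 1. The peak chr3:49129305-49129391 (33.4 and 14.2) lay 2.5 bp from the centre of a 366 bp H3K9Ac peak, but 36.5 bp from that of a 146 bp peak in replicate 2. The peak chr8:94708792-94708894 (33.7 and 17.4) lay 6 bp from that of a 403 bp peak, but 46 bp from that of a 161 bp peak in replicate 2. At chr14:73257569-73257669 (35.7 and 16.1) the distance was 16 bp in a 375 bp peak, and at chr7:128061012-128061088 (29.8 and 17.4) it was 24.5 bp in a 420 bp peak and, in replicate 2, 10 bp in a 219 bp peak. The other 2 of the 10 were off centre in a narrower H3K9Ac replicate 1 peak: chr7:106646235-106646318 (27.5 and 19.04) by 75.5 bp in 215 bp, and chr11:65919213-65919310 (22.2 and 28.9) by 72.5 bp in 239 bp. Within a list, H3K9Ac scores at these 10 regions ran from 8.65 to 34.1 in replicate 1 and, at the 7 with a peak, from 5.90 to 8.33 in replicate 2.

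BRWD1 peaks tended to sit at the middle of the H3K9Ac peak in replicate 1, and less so in replicate 2. The peak centre fell in the central 33.3% of the H3K9Ac peak at 150 of 220 regions in replicate 1 (68.2%, 95% Wilson interval 61.8 to 74.0%) and at 39 of 86 in replicate 2 (45.3%, 35.3 to 55.8%). All BRWD1 replicate 1 peaks in H3K9Ac peaks of these lists had 65.7% and 56.6%, so the H3K9Ac-only regions were close to this background in replicate 1 and below it in replicate 2. Regions with both marks had 80.0% and 68.3%, and H3K9Ac-only peaks found in BRWD1 replicate 1 alone had 52.6% and 42.4%. The median distance between the centres of the BRWD1 and the H3K9Ac peak was 17.8 bp in replicate 1 (quartiles 3.88 and 72.6) and 39.8 bp in replicate 2 (10.1 and 58.5). The offset had no side, since the BRWD1 centre was left of the H3K9Ac centre at 114 of 220 and 39 of 86 regions.

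**Figure D1:**
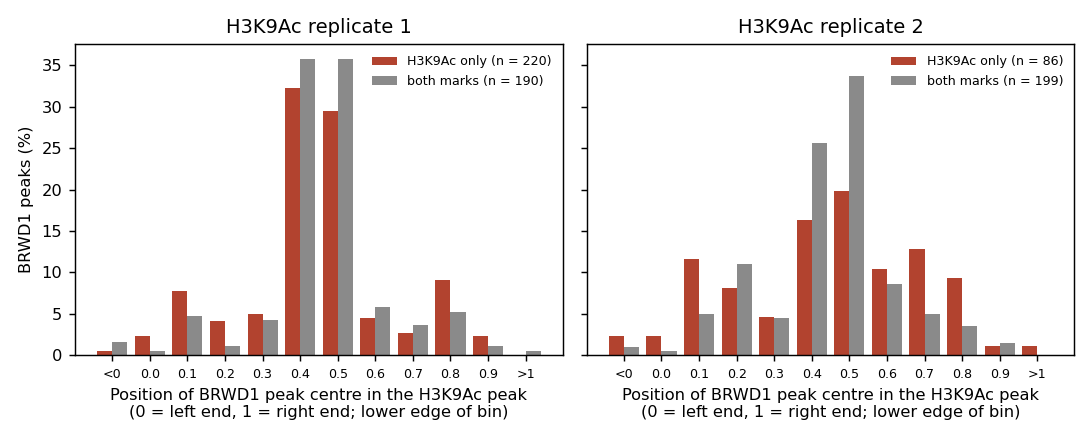
Position of the BRWD1 peak centre within the H3K9Ac peak, as a fraction of its width from the left to the right end (x axis, bins of 0.1), and the share of BRWD1 peaks in each bin in percent (y axis), for H3K9Ac-only regions (red) and regions with both marks (grey). In replicate 1 both sets have their highest bins at the middle; in replicate 2 the 86 H3K9Ac-only regions have side groups beside a lower middle.

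The whole BRWD1 peak lay inside the H3K9Ac peak at 175 of 220 regions in replicate 1 (79.5%, background 83.2%) and at 52 of 86 in replicate 2 (60.5%, background 73.1%). It covered a median of 22.7% and 35.2% of the H3K9Ac width. Stronger BRWD1 peaks were closer to the middle in replicate 1, where those with a score of 10 or more had a median offset of 9.5 bp and a central share of 73.7%, and weaker ones 42 bp and 59.0%. In replicate 2 the medians were 38.5 and 44 bp, a small difference in the same direction. The central share there ran the other way, 42.6% at scores of 10 or more and 48.7% below. The direction was thus shared by both lists for the offset but not for the central share. Measured from the centre of the BRWD1 replicate 2 peak, the central shares were 71.8% and 47.7%. Among the 60 regions with both H3K9Ac libraries, 45 were central in replicate 1, 27 in replicate 2 and 22 in both.

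The H3K9Ac peaks at these regions had a narrow preferred width. In replicate 1 their median width was 367.5 bp with quartiles of 301 and 380 bp, and in replicate 2 228.5 bp with quartiles of 163 and 257 bp. H3K9Ac peaks without a BRWD1 peak of either replicate had medians of 375 and 204 bp with quartiles of 280 and 545 bp, and of 166 and 285 bp. The medians were thus close and the spread differed, most of all on the wide side in replicate 1. H3K9Ac peaks at regions with both marks had quartiles of 367 and 404 bp in replicate 1, and of 232 and 311 bp in replicate 2. The narrow spread was therefore not particular to the H3K9Ac-only regions. Widths of 1 kb or more were rare at the H3K9Ac-only regions in replicate 1 (3 of 216, 1.39%, background 4.68%), and 3 of 84 in replicate 2 (3.57%, background 0.656%). Averaged over both lists the median was 298 ± 98.3 bp (SD, n = 2), against 311.5 ± 88.4 bp for regions with both marks (exact two-sided permutation test of list medians, p = 0.667) and 289.5 ± 121 bp for H3K9Ac peaks without BRWD1 (exact permutation p = 1). Within a list the median was lower than at regions with both marks by 6.5 and 20.5 bp, so the SDs mostly hold the difference between the lists. With 2 lists against 2 the smallest p of this exact test is 0.333, or 0.5 when paired by list, so it could not have called any difference. The medians of both sets compared come from the same 2 H3K9Ac lists.

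A wide peak has more bases to be overlapped, yet in replicate 1 the share of H3K9Ac peaks with an H3K9Ac-only BRWD1 peak was highest at 300 to 400 bp. It was 53 of 3001 (1.77%) at 200 to 300 bp, 122 of 2539 (4.81%, 95% Wilson interval 4.04 to 5.71%) at 300 to 400 bp, 21 of 1491 (1.41%) at 400 to 500 bp and 10 of 1966 (0.509%) at 500 to 750 bp. Wider peaks had 7 of 647 (1.08%) at 750 to 1000 bp and 3 of 474 (0.633%) above. Per kilobase covered by the H3K9Ac peaks of each width there were 0.0707, 0.138, 0.0317, 0.00846, 0.0127 and 0.00454 peaks with such a region, in the same order. In replicate 2 the share was 0.437% below 200 bp, 0.732% at 200 to 300 bp and 0.459% at 300 to 400 bp. A single peak each gave 0.110% at 400 to 500 bp, 0.123% at 500 to 750 bp and 0.513% at 750 to 1000 bp, and 3 of 108 gave 2.78% at 1 kb or more.

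**Figure D2:**
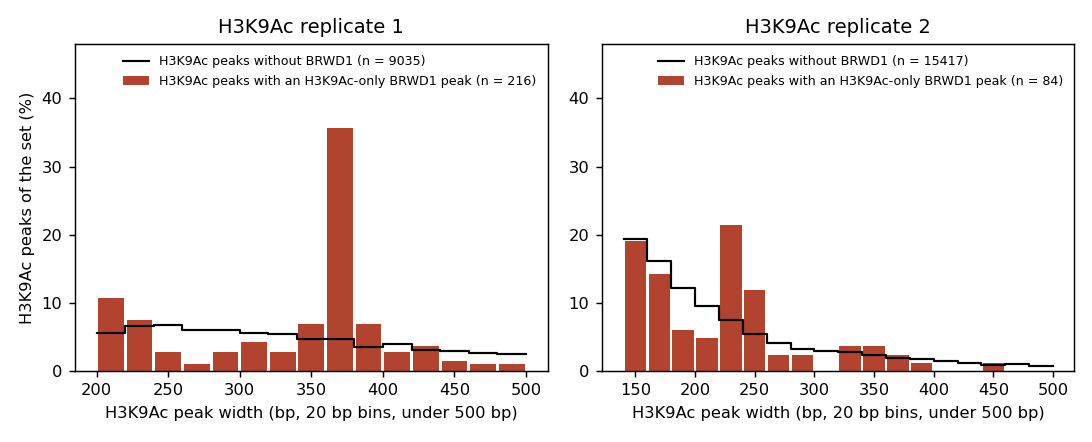
H3K9Ac peak widths in bins of 20 bp below 500 bp (x axis) and the share of the set in each bin in percent (y axis), for H3K9Ac peaks with an H3K9Ac-only BRWD1 peak (red bars) and those without any BRWD1 peak (black line). In replicate 1 a single bin, 360 to 379 bp, holds 35.6% of the red set and 4.69% of the black; in replicate 2 the red set exceeds the black at 220 to 259 bp.

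In finer bins, chosen after the values were seen, the H3K9Ac replicate 1 peaks of 360 to 379 bp stood out. This bin held 77 of the 216 peaks with an H3K9Ac-only region (35.6%) and 4.69% of the peaks without BRWD1. Of all 636 peaks of this width, 12.1% held an H3K9Ac-only region (95% Wilson interval 9.80 to 14.9%) and 11.6% a region with both marks. The BRWD1 peak was at the very middle of these 77 peaks: the median offset was 3.5 bp and 58 lay within 10 bp. Examples on the X chromosome are X:35309784-35309859, 1.5 bp from the centre of a 379 bp peak, X:53354674-53354746, 2 bp from that of a 367 bp peak, and X:83422904-83422980, 4 bp from that of a 369 bp peak in replicate 1 and 2 bp from that of a 237 bp peak in replicate 2. At X:131240942-131241006, with a BRWD1 replicate 1 score of only 5.47, the centres of the BRWD1 peak and the 371 bp H3K9Ac peak coincided.

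A second group of H3K9Ac replicate 1 peaks was narrower and had BRWD1 at one end. Of 1857 peaks of 200 to 259 bp, 45 held an H3K9Ac-only region (2.42%), with a median offset of 75.5 bp (quartiles 71.5 and 80). In 37 of the 45 the offset was between 60 and 90 bp, to the left in 19 of the 45 and to the right in 26. The same pair of forms was present in replicate 2. There the 28 H3K9Ac peaks of 220 to 259 bp with an H3K9Ac-only region had a median offset of 5 bp, and the 33 of 140 to 199 bp had one of 46.5 bp.

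**Figure D3:**
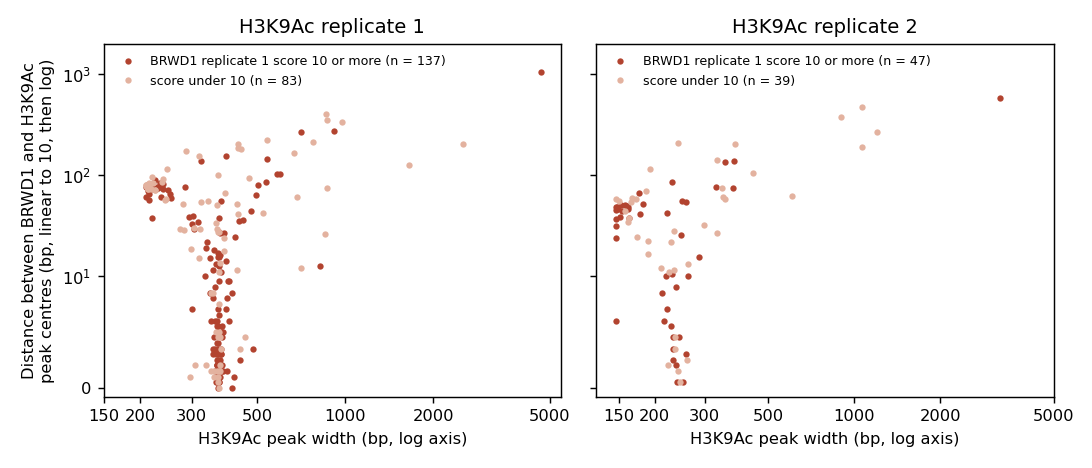
Width of the H3K9Ac peak (x axis, bp, log scale) against the distance between BRWD1 and H3K9Ac peak centres (y axis, bp, linear to 10 and then log), a point for each H3K9Ac-only region, dark for a BRWD1 replicate 1 score of 10 or more and light for less. Points gather in a column of small offsets near 370 bp in replicate 1 and near 240 bp in replicate 2, and in a cluster of larger offsets at the narrowest widths of each list.

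The peaks of the other lists commonly reached a like distance past the ends of the BRWD1 replicate 1 peak, often at 1 end only. The BRWD1 replicate 2 peak reached a median of 87 bp past the left end and 88 bp past the right end of the replicate 1 peak. The H3K9Ac peak reached a median of 144 and 145 bp past the ends in replicate 1 (220 regions) and 75 and 79.5 bp in replicate 2 (86 regions). The spread was wide in H3K9Ac replicate 2, with quartiles of 27.8 and 90.3 bp on the left and 15.3 and 92 bp on the right. The medians lay near the differences between the smallest peak widths of the lists, which were 89 bp for BRWD1 replicate 2, 150 bp for H3K9Ac replicate 1 and 87 bp for H3K9Ac replicate 2, each minus that of BRWD1 replicate 1. Both ends lay within 10 bp of that difference at 82 of 246 regions for BRWD1 replicate 2 (33.3%), at 58 of 220 for H3K9Ac replicate 1 (26.4%) and at 7 of 86 for H3K9Ac replicate 2 (8.14%), and exactly 1 end did so at 106, 101 and 40. Neither end did at 58, 61 and 39. Of the 77 H3K9Ac replicate 1 peaks of 360 to 379 bp, both ends did so at 47. Of the 45 of 200 to 259 bp none did at both ends and 35 did at 1 end. How far the smallest peak width of each list sets the preferred widths and offsets was not tested.

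The score of the H3K9Ac peaks at these regions was above the middle of the list in replicate 1 and near it in replicate 2. The median was 8.53 in replicate 1 (quartiles 6.18 and 13.3), at the 67.3 percentile of its list, and 6.37 in replicate 2 (5.90 and 8.33), at the 53.2 percentile. Regions with both marks had medians of 13.3 and 9.62, at the 86.9 and 83.3 percentiles, and H3K9Ac peaks without BRWD1 medians of 6.80 and 5.96. The mean percentile was 60.2 ± 9.95 (SD, n = 2), lower than at regions with both marks by 24.8 points, with differences of −19.6 and −30.1 in the lists (exact two-sided permutation p = 0.333, adjusted p = 0.8 over 6 comparisons). It was higher than for H3K9Ac peaks without BRWD1 by 12.4 points, with differences of 19.8 and 4.91 (exact permutation p = 0.333, adjusted p = 0.8).

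The peaks of 360 to 379 bp in replicate 1 were also stronger than others of their width, with a median score of 9.76 against 6.98 for those without BRWD1. Those of 200 to 259 bp had 6.09 against 5.37. In replicate 2 the medians were 7.09 against 6.44 at 220 to 259 bp and 5.90 in both sets at 140 to 199 bp. In the wider bands of replicate 2 from 300 to 750 bp, with 9, 1 and 1 such peaks, the medians lay below those of peaks without BRWD1, for example 6.31 against 7.48 at 300 to 400 bp.

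The H3K9Ac peaks at these regions stood apart from other H3K9Ac peaks. In replicate 1 the nearest other peak of the same list was a median of 172008 bp away, against 9691 bp for H3K9Ac peaks without BRWD1. In replicate 2 the medians were 55453 and 19828 bp. Another H3K9Ac peak lay within 1 kb of 11 of 216 in replicate 1 (5.09%, background 34.1%) and of 11 of 84 in replicate 2 (13.1%, background 25.7%). Within 10 kb the shares were 11.1% and 21.4%, against 50.2% and 40.7% of H3K9Ac peaks without BRWD1. Regions with both marks had medians of 185964 and 54799 bp. H3K9Ac peaks at H3K9Ac-only BRWD1 peaks of replicate 1 alone had 80864 and 10792 bp. In replicate 1 the isolation held at equal width. Among peaks of 360 to 379 bp the median gap was 199595 bp with an H3K9Ac-only region and 11793 bp without BRWD1, and among those of 200 to 259 bp 278522 and 25003 bp. In replicate 2 the medians were 81806.5 and 18209 bp at 220 to 259 bp, and 52577 and 32403 bp at 140 to 199 bp. Among wider replicate 2 peaks, where few held such a region, it did not hold in every bin, for example 278 against 5465 bp at 320 to 339 bp.

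**Figure D4:**
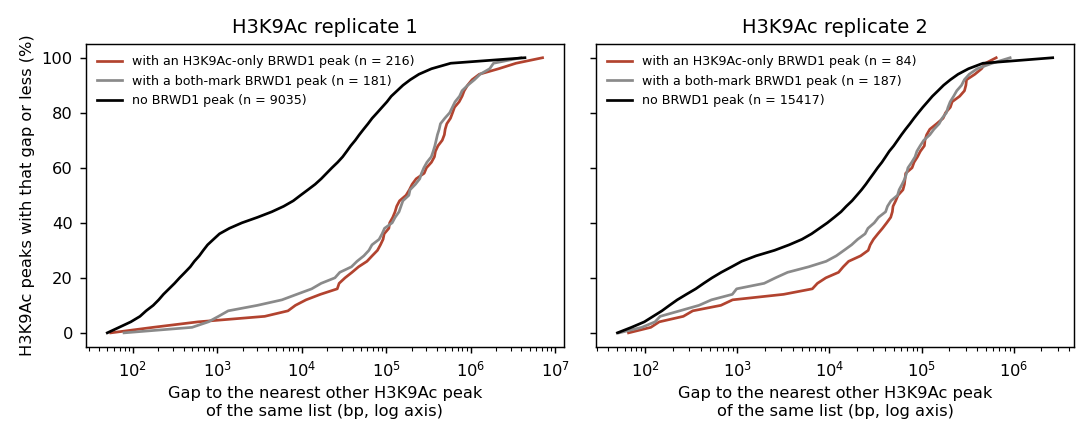
Cumulative share of H3K9Ac peaks in percent (y axis) by the gap to the nearest other H3K9Ac peak of the same list (x axis, bp, log scale), for H3K9Ac peaks with an H3K9Ac-only BRWD1 peak (red), with a BRWD1 peak at both marks (grey) and without BRWD1 (black). The red and grey curves lie to the right of the black one, with red medians of 172008 and 55453 bp in replicates 1 and 2 against 9691 and 19828 bp for black.

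A few regions lay in wide H3K9Ac peaks instead, some of them strong, and there BRWD1 replicate 1 scored below the median of the H3K9Ac-only regions. The widest was at chr12:114664507-114664766 in the window of the immunoglobulin heavy chain locus (Igh). Its H3K9Ac peaks were 4669 bp wide with a score of 170.9 in replicate 1, rank 2 of the list, and 3249 bp with a score of 106.6 in replicate 2, rank 1. BRWD1 scored 11.1 and 9.10 and lay 1045 and 589 bp from the H3K9Ac centres, and the nearest H3S10pK14Ac peak was 209 bp away, so this region is H3K9Ac-only by a short distance. At chr11:46124071-46124134 (BRWD1 scores 6.91 and 8.36) the H3K9Ac peaks were 2520 and 604 bp wide with lower scores of 13.9 and 9.62. At chr2:163469437-163469577 (5.14 and 8.32) they were 1652 and 1199 bp wide with scores of 59.4 and 28.9. At chr5:65883519-65883584 (5.47 and 5.16) they were 979 and 897 bp wide with scores of 59.6 and 66.1. The fifth widest peak of replicate 1, 914 bp at chr3:19528979-19529048, had BRWD1 scores of 11.4 and 7.63 and an H3K9Ac score of only 6.95, with none in replicate 2. The regions in the widest peaks of replicate 2 were those on chromosomes 12, 2 and 5 and the pair on chromosome 11 described next. The BRWD1 replicate 1 scores of all these regions lay below 11.6, the median of the H3K9Ac-only regions. In BRWD1 replicate 2 this did not hold throughout, since the Igh region lay above and chr11:46124071-46124134 at the median of 8.36.

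No H3K9Ac peak held 3 H3K9Ac-only BRWD1 peaks, and 4 of replicate 1 and 2 of replicate 2 held a pair. The strongest was chr11:115891924-115892791 in replicate 1 (868 bp, score 97.1, rank 6), which matched chr11:115891940-115893009 in replicate 2 (1070 bp, score 63.4, rank 20). Its BRWD1 peaks, chr11:115891905-115892102 and chr11:115892212-115892353, were weak, with replicate 1 scores of 5.37 and 5.47 and replicate 2 scores of 6.37 and 6.86. The other pairs, on chromosomes 1, 5 and 19, each lay under a single BRWD1 replicate 2 peak, so each of those pairs is 1 region in that library.

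Apart from direct overlap, the share of H3K9Ac-only regions near H3S10pK14Ac was close to that of other BRWD1 peaks. The nearest H3S10pK14Ac peak of either replicate was a median of 83106 bp away, and within 10 kb at 30 of 246 regions (12.2%, 95% Wilson interval 8.68 to 16.9%), against 9.77% of all BRWD1 replicate 1 peaks that touch no H3S10pK14Ac. Within 1 kb there were 6 (2.44%, background 1.25%). The interval of the first share includes the background. Of the H3K9Ac peaks at these regions, 2 of 216 (0.926%) and 3 of 84 (3.57%) touched H3S10pK14Ac elsewhere along their length, against 405 of 10118 (4.0%) and 743 of 16453 (4.52%) of all H3K9Ac peaks. The choice excluded H3S10pK14Ac at the BRWD1 peak, often the middle of a narrow H3K9Ac peak. All H3K9Ac peaks had no such exclusion, so the lower shares follow at least in part from the choice. Most H3S10pK14Ac peaks are of replicate 2. Without that list the share within 10 kb was 1.34%, but of a larger set of 448 regions and measured to the 103 peaks of replicate 1 alone.

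At the limits of the choice, taking for each region its longest overlap with H3K9Ac of either replicate, the smallest overlap among the regions kept was 7 bp, at chr12:109587637-109587710, followed by 39 bp at chr3:128016141-128016256 and 45 bp at chr17:13248420-13248479. Those nearest to H3S10pK14Ac were chr9:61102183-61102385, 15 bp away, chr9:3036532-3036594 (48 bp) and chr9:3018749-3018813 (207 bp). Just outside, chr17:48050633-48050701 missed an H3K9Ac peak by 46 bp. The smallest H3S10pK14Ac overlaps that led to a region being left out were 42 bp at chr16:78253033-78253198, 47 bp at chr6:17443223-17443286 and 49 bp at chr17:39984235-39984331. Apart from the 7 bp overlap, these overlaps with the histone marks were of 39 bp or more. The overlap with BRWD1 replicate 2 was smallest, 2 bp, at chr11:22715456-22715547.

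The regions were scattered thinly over the genome. They fell in 230 of 2651 windows of 1 Mb, 14 windows held 2 or more and none more than 3. The variance of the count per window divided by its mean, which is 1 for independent placement at an even rate and grows with clustering, was 1.05, and 1.01 in windows of 5 Mb. The ratio depends on list size. The H3K9Ac lists, at 6.43 and 5.99 as a whole, came to 1.13 and 1.07 when scaled down to 246 peaks, and BRWD1 replicate 1 to 1.03. Regions with both marks had 3.94, of which 26 lay between 3 and 4 Mb of chromosome 9, and 1.22 without that window. The H3K9Ac-only regions had 2 peaks there. Without H3S10pK14Ac replicate 2 the choice gave a larger set of 448 regions, and the ratio of that set was 2.83. Neighbouring regions on a chromosome were a median of 6.97 Mb apart (quartiles 2.79 and 13.8 Mb, 226 gaps), and 8 gaps were below 100 kb.

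The densest windows held 3 regions each. Between 108 and 109 Mb of chromosome 4 these were chr4:108540455-108540536, chr4:108618813-108618871 and chr4:108971727-108971802, with BRWD1 replicate 1 scores of 20.6, 7.41 and 18.5, among 14 and 18 H3K9Ac peaks. Between 21 and 22 Mb of chromosome 19 they were chr19:21284180-21284337 (18.3) and a close pair, chr19:21985965-21986023 (6.22) and chr19:21986348-21986424 (6.59). A further 12 windows held 2.

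The Igk window (67 to 71 Mb of chromosome 6) held no H3K9Ac-only region among its 12 BRWD1 replicate 1 peaks, and 2 with both marks. Over the whole list H3K9Ac-only regions were 4.23% of BRWD1 replicate 1 peaks, so a count of 0 among 12 is not informative. Windows at the lambda light chain and the T cell receptor beta and gamma loci held none, among only 2, 2 and 3 BRWD1 replicate 1 peaks. The T cell receptor alpha and delta window held 1, chr14:54464654-54464720. It was weak in BRWD1 replicate 1 (6.91, rank 800) and stronger in replicate 2 (17.4, rank 133), and lay 2 bp from the centre of a 223 bp H3K9Ac replicate 2 peak with none in replicate 1. The windows were set in whole megabases from general knowledge and include flanking sequence.

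All chromosomes but Y held H3K9Ac-only regions, in numbers from 4 on chromosome 15 to 25 on chromosome 3. Chromosome 3 held 10.2% of them (95% Wilson interval 6.98 to 14.6%), against 5.13% of H3K9Ac replicate 1 peaks, 5.33% of replicate 2 peaks and 7.03% of BRWD1 replicate 1 peaks. The X chromosome held 14 (5.69%, 3.42 to 9.32%), against 1.77% and 1.65% of H3K9Ac peaks, 3.82% of BRWD1 replicate 1 peaks and 6.31% of the chromosome length covered. Of the 235 regions with both marks, 3 were on X. Per 100 H3K9Ac replicate 1 peaks there were 7.82 H3K9Ac-only regions on X, 4.82 on chromosome 3, 4.58 on chromosome 18 and 0.976 on chromosome 15. Over 21 chromosomes the shares of H3K9Ac-only regions had Pearson's r of 0.56 with those of H3K9Ac replicate 1, 0.69 with those of BRWD1 replicate 1 and 0.68 with length, a description in which all shares are bound to chromosome size.

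**Figure D5:**
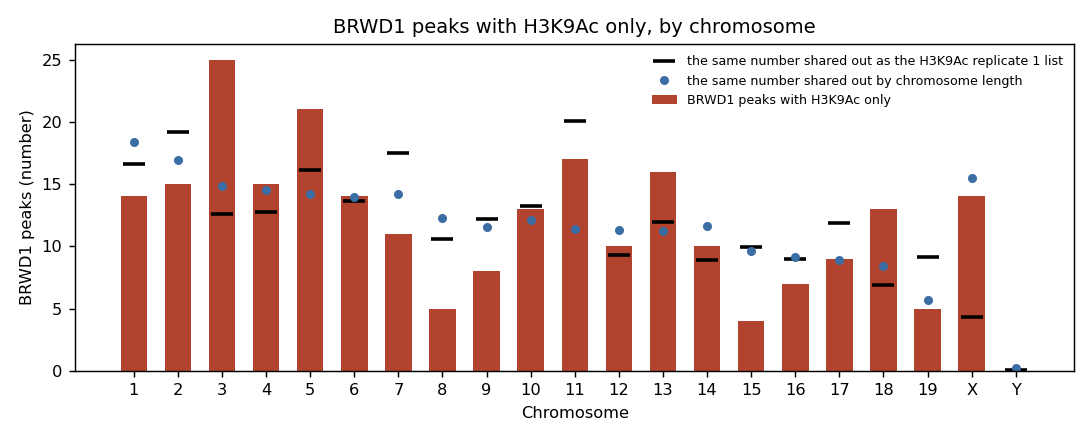
Number of H3K9Ac-only BRWD1 peaks (y axis) on each chromosome (x axis, bars), with the number that would fall there if the same total were shared out as the H3K9Ac replicate 1 list (black marks) or by length (blue points). Bars above the black marks include those of chromosomes 3, 5, 13, 18 and X, with 25, 21, 16, 13 and 14 regions, and the bar of X is near the blue point.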

How the data were processed

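The 6 ChIP-seq peak lists were analysed, grouped by antibody and replicate from the sample titles. Input DNA, ATAC-seq and RNA-seq are not analysed here. Trimmomatic 0.32, BWA 0.7.5, Picard, MACS2 and the build mm9 are named, without roles, per the submitters' processing notes. The authors deposited 1 list per replicate library, with a score in −log10 units. Settings and control libraries were not given in the sources used here. List names and values gave the unit of the score, and do not tell p from q.

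Overlaps, positions, gaps and windows were computed with Python 3.11.15, numpy 2.4.6 and pandas 2.3.3, and exact permutation tests with scipy 1.17.1. The overlap code was tested on simulated data. A region with several H3K9Ac peaks of a list was placed in the one with the longest overlap, and each H3K9Ac peak was counted once for widths and scores. Percentiles average ties. Wilson intervals cover the counting of peaks only, and depth is unknown. Peaks of a list are not replicates, so no test was run over peaks. The spread of the scaled-down lists was computed, not drawn: the ratio minus 1 was multiplied by the fraction of peaks kept, and 1 added.

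The regions, comparisons and lists were chosen with earlier results of these data known. The rule for named regions took the 10 best by mean BRWD1 score percentile, the 5 in the widest H3K9Ac peaks of each list, those in antigen receptor windows, the densest 1 Mb windows and the neighbours of each limit. Pairs within an H3K9Ac peak, the X chromosome examples and the fine width bins were added after the values were seen. Alternatives covered the overlap, the direction of the BRWD1 overlap, the distance, score and replicate requirements, trimming of high scores, sequence names, window width and leaving out each library; leaving out the 3 to 4 Mb window of chromosome 9 and pairing the classes within each H3K9Ac list were added after seeing the data. No mm9 sequence or annotation was used, so no region is assigned to a gene.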

Additional observations from a re-analysis of the deposited data

How the results depend on the processing

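Of 92 values under the alternatives, 75 stayed within their limit, which is a factor of 1.5 for the number of regions and the variance to mean ratio, the 95% Wilson interval for shares of regions, and 1 SD between lists for positions, widths and score percentiles, or for the tests the side of the threshold; 17 moved. The median H3K9Ac width stayed within it under every alternative run, but this limit is wide. Leaving out H3K9Ac replicate 1 or 2 gave 228.5 or 367.5 bp in place of 298 bp. Leaving out 1 of 2 H3K9Ac lists cannot shift a mean over both by more than 1 SD. That holds for positions, widths and score percentiles alike, and no test could cross its threshold. For these entries the label was thus fixed in advance and is no sign of stability. The 246 regions became 60 if both H3K9Ac libraries were required and 30 at scores of 10 or more in the BRWD1 and H3K9Ac lists, and 86 to 918 when single libraries were left out. At scores of 10 or more the central share, averaged over lists, was 73.3% in place of 56.8%, the median H3K9Ac score percentile 89.6 in place of 60.2, the share with both H3K9Ac libraries 3.33% in place of 24.4%, and the share within 10 kb of H3S10pK14Ac 3.33% in place of 12.2%. Within 1 kb of H3S10pK14Ac the share was 2.44%. Leaving out single libraries gave 44.7 to 68.2% for the central share, 53.2 to 77.5 for the score percentile, 22.8 to 40.8% for both H3K9Ac libraries, 1.34 to 16.3% for the share near H3S10pK14Ac and 1.05 to 2.83 for the variance to mean ratio. Leaving out a library changes the set of regions, so these are values of unlike sets. The ratio was 1.05 without the 3 to 4 Mb window of chromosome 9. The cause of these moves was not tested. Pairing the classes within each H3K9Ac list (the replicate block, added after seeing the data) left the mean differences as they were by construction: −24.8 and 12.4 percentile points and −13.5 and 8.5 bp against regions with both marks and peaks without BRWD1, and −6.33 points and −49.5 bp against BRWD1 peaks of replicate 1 alone. Against the latter the lists were unlike, with 10.7 and −23.4 points and −1.5 and −97.5 bp in H3K9Ac replicates 1 and 2. Those means therefore describe neither list. The exact paired p was 0.5 or 1 in all 6 comparisons, and 0.5 is the smallest 2 pairs can give. The counts and shares come from no test, so they have no paired form. Depth is unknown, so an H3K9Ac or H3S10pK14Ac peak that is missing from a list may be absent or below detection.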
